A study of Homo sapiens with 50 samples.

Results

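Proteasome subunit genes and ubiquitin-specific protease (USP) genes accounted for 48 of the 6481 entries in the authors' list of pause sites in DLD-1, a human cell line from a colorectal adenocarcinoma. Members were the entries whose protein-coding gene carries a symbol made of PSMA, PSMB, PSMC, PSMD, PSME, PSMF or USP and digits, found by matching gene coordinates to RefSeq. Of 92 RefSeq genes with such a symbol, the 48 listed ones comprised 5 of 19 genes of the 20S core, 15 of 20 genes of the 19S regulatory particle, 2 of 5 genes of proteasome activators and inhibitor, and 26 of 48 USP genes. The series itself holds 50 libraries in 32 groups, chromatin immunoprecipitations and 1 input, all from cells that express OsTIR1, the plant F-box protein through which auxin degrades proteins carrying an auxin-inducible degron (AID). By genotype these are parental cells and SPT6-AID, PAF1-AID, SPT6-AID/PAF1-AID and SPT6-AID/NELF-C-AID lines, kept for 2 h with vehicle or for 0, 2 or 6 h with 500 µM auxin. The library labels do not say whether a line is a single clone. No library signal was analysed here, so nothing below compares antibodies, lines or treatments. What was measured is the pause distance, the number of bp from the listed 5′ end of a gene to its listed pause site along the gene's strand. Each gene has a single site and no replicate. The spread quoted is therefore between genes, no test was run, and every comparison is a description.

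The proteasome degrades proteins tagged with ubiquitin. Its barrel-shaped 20S core is built from rings of α subunits (PSMA genes) around rings of β subunits (PSMB genes), some of which carry the proteolytic sites, and the 19S regulatory particle, a base with ATPases (PSMC genes) and a lid with further PSMD subunits, binds, unfolds and feeds in the substrate. USP enzymes form the largest family of deubiquitinases, which remove ubiquitin from substrates before or instead of degradation. Promoter-proximal pausing holds RNA polymerase II (Pol II) shortly after initiation, and SPT6, the histone chaperone that the series depletes, travels with Pol II during elongation. Proteasome genes are known to be induced together when proteasome activity drops, through the transcription factor NFE2L1.

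Sequence around the listed site was available for 9 of the 48 members, because the RefSeq promoter windows used here (GRCh38.p14, the coordinates of hg38) end shortly after the start of transcription. They are shown because the base after the site is the same in nearly all of them. Each run is 24 bases, 5′ to 3′ on the gene's strand, from 20 bases before to 3 bases after the site, and the capitals mark the listed site and the base that follows it.
PSMD5 (chr9:120842878-120842901, minus strand): ccaggctttggcgctgctgaGAga
PSMC3 (chr11:47426391-47426414, minus strand): ggagctggtcgggtcaagagTCgg
PSMD12 (chr17:67366533-67366556, minus strand): aagcagggggacagcaagggACgc
PSMA4 (chr15:78540603-78540626, plus strand): gaacgtcaagacagtcggtcCCgg
PSMF1 (chr20:1118664-1118687, plus strand): agaaccagcgcaagagggaaGCag
USP12 (chr13:27171784-27171807, minus strand): cctgagcgccggcggcgacgACgg
USP45 (chr6:99515375-99515398, minus strand): cggcggggtgagttgagaacGCgg
USP10 (chr16:84700013-84700036, plus strand): cgggcgagaagatggcggcgGCgg
USP46 (chr4:52659201-52659224, minus strand): agcgcgccaccatgggcagtCCcg

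The base after the listed site was C in 8 of the 9 members and A in the remaining gene, PSMD5. The base at the site itself varied, with G in 4 members, A in 2, C in 2 and T in 1. Among the 1846 other entries with sequence, the following base was C in 86.4% and G in 0.325%, and the site itself was G in 48.8%. The preference for C at that position was similar on both strands, at 86.9% of 960 plus strand entries and 85.9% of 895 minus strand entries. The next base, 2 after the site, was G in 7 of the 9 members and in 55.8% of other entries. The members thus carried the sequence that most listed sites carry. Whether the listed base or its neighbour is the last one transcribed is not stated in the labels, and a shift by 1 base would change each distance by 1 bp. Entries with sequence had mostly short distances (median 40 bp among the other entries).

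The listed 20S core genes mostly had their pause sites far from the listed start. The 19S genes had theirs nearer to it, with a median slightly above that of the other entries. Of 5 core genes, 4 had a distance over 100 bp, against 0 of 15 regulatory particle genes, and 18.7% of all 6481 entries. The core median was 171 bp (quartiles 135 and 179), and the 19S median was 57 bp (quartiles 51 and 70.5). The 6433 other entries had a median of 52 bp with quartiles of 38 and 83 bp. All 4 distant core genes lay beyond the highest 19S value of 97 bp, whereas the remaining core gene, at 51 bp, lay inside the 19S range. With 5 core genes listed of 19, the core median rests on a small part of that complex. The naming left out an entry at 89 bp that ends on the same base as PSMA6, because a non-coding readthrough gene also ends within 50 bp of it. If only protein-coding genes compete for the name, an alternative chosen after seeing the data, PSMA6 is a member, 4 of 6 core genes lie over 100 bp and the core median is 153 bp.

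**Figure D1:**
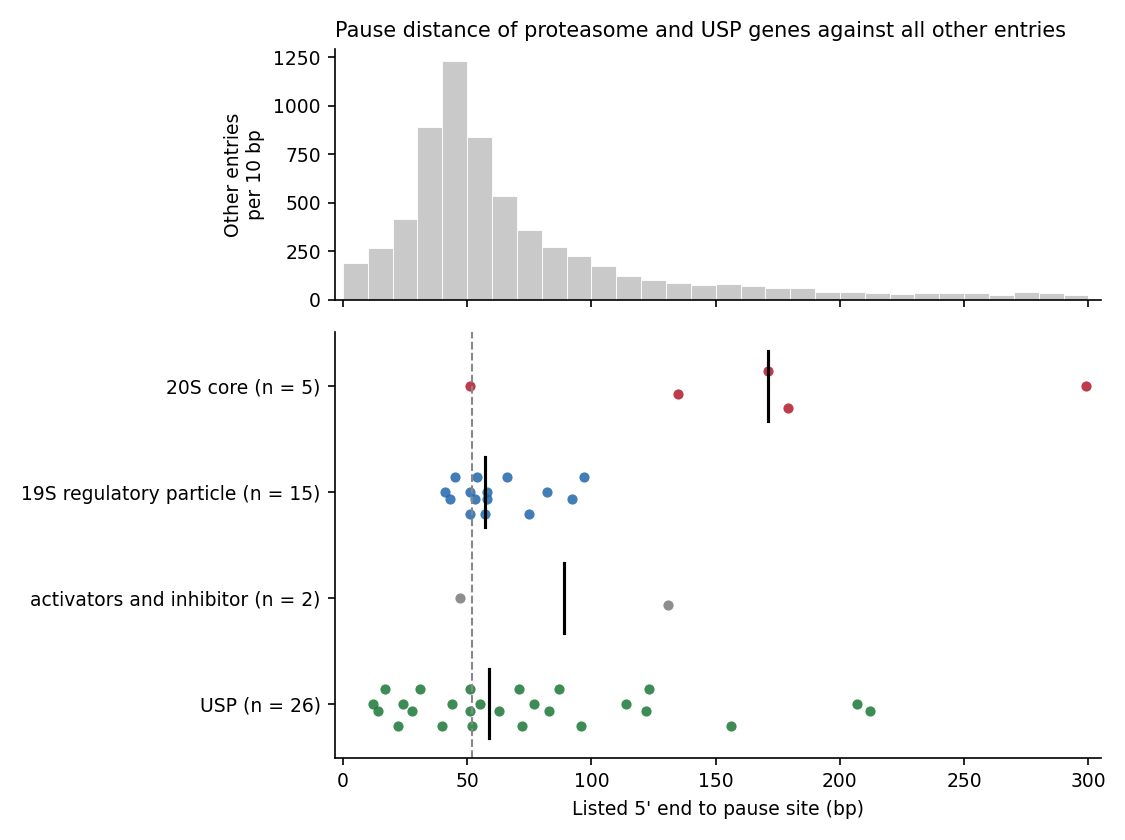
Top, number of other entries per 10 bp of pause distance (listed 5′ end to pause site, in bp). Bottom, each point is a gene, black bars are class medians and the dashed line is the median of the other entries (52 bp); 4 of 5 core genes lie to the right of all 15 genes of the 19S regulatory particle.

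Among α subunits, PSMA3 (chromosome 14, 58244897 to 58272004, plus strand) had its site at 58244948, 51 bp from the listed start. PSMA4 (chromosome 15, 78540444 to 78552417, plus strand) had its site at 78540623, a distance of 179 bp. For PSMA1 (chromosome 11, 14504876 to 14520338, minus strand) the site was at 14520039, and its 299 bp is the highest distance that occurs anywhere in the list. The list still held 27 other entries at 290 to 299 bp. Whether the authors cut it at that distance is not stated in the sources used here. The α subunits form the outer rings that gate the entry to the barrel, and their listed genes thus ran from a value near the median of all entries to the far end of the list.

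Both listed β subunit genes had distant sites. PSMB2 (chromosome 1, 35599541 to 35641514, minus strand), a β subunit without proteolytic activity, had its site at 35641379, 135 bp downstream. PSMB5 (chromosome 14, 23025856 to 23034885, minus strand) encodes the β subunit with chymotrypsin-like activity, the main target of bortezomib, and its site was at 23034714, a distance of 171 bp. The genes of the other catalytic subunits, PSMB6 and PSMB7, were not named entries. Nor were those of the immunoproteasome, PSMB8, PSMB9 and PSMB10, or the thymus form PSMB11.

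In the regulatory particle, distances from the listed ends fell in a narrow range from 41 to 97 bp, whereas from the nearest RefSeq transcript start they ran from 41 to 299 bp. From the listed ends, their standard deviation was 17.4 bp over 15 genes, against 56.6 bp in the other entries. The narrow range held for the listed ends only, which the following shares also use. Of the 15, 10 lay at 20 to 60 bp (66.7%, against 53.4% of all entries) and 0 lay under 20 bp, where 7.08% of all entries fell. The remaining 5 lay between 61 and 100 bp.

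Of the 4 listed ATPase genes of the base, 3 lay above the 19S median of 57 bp. PSMC3 had the shortest of these distances at 45 bp, followed by PSMC4 at 66 bp, PSMC6 at 75 bp and PSMC2 at 92 bp. These subunits form the ring that unfolds the substrate. PSMC1 and PSMC5, the remaining members of the ring of 6, were not named entries.

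Of the non-ATPase subunits of the base, PSMD1 and PSMD2, the large scaffold subunits, both had a distance of 58 bp. PSMD4, a ubiquitin receptor, stood at 51 bp. The scaffolds and the receptor thus lay within 7 bp of each other, close to the median of all entries.

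The lid subunits covered nearly the whole 19S range. PSMD14, the metalloprotease that removes ubiquitin chains as the substrate enters, had the shortest distance of them at 43 bp. PSMD12 stood at 51 bp, PSMD11 at 53 bp, PSMD3 at 54 bp and PSMD6 at 57 bp. PSMD8 at 82 bp and PSMD7 at 97 bp, the partner of PSMD14 in the lid, lay above. PSMD5, a chaperone of base assembly and not a subunit of the finished particle, had the lowest 19S value at 41 bp.

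**Figure D2:**
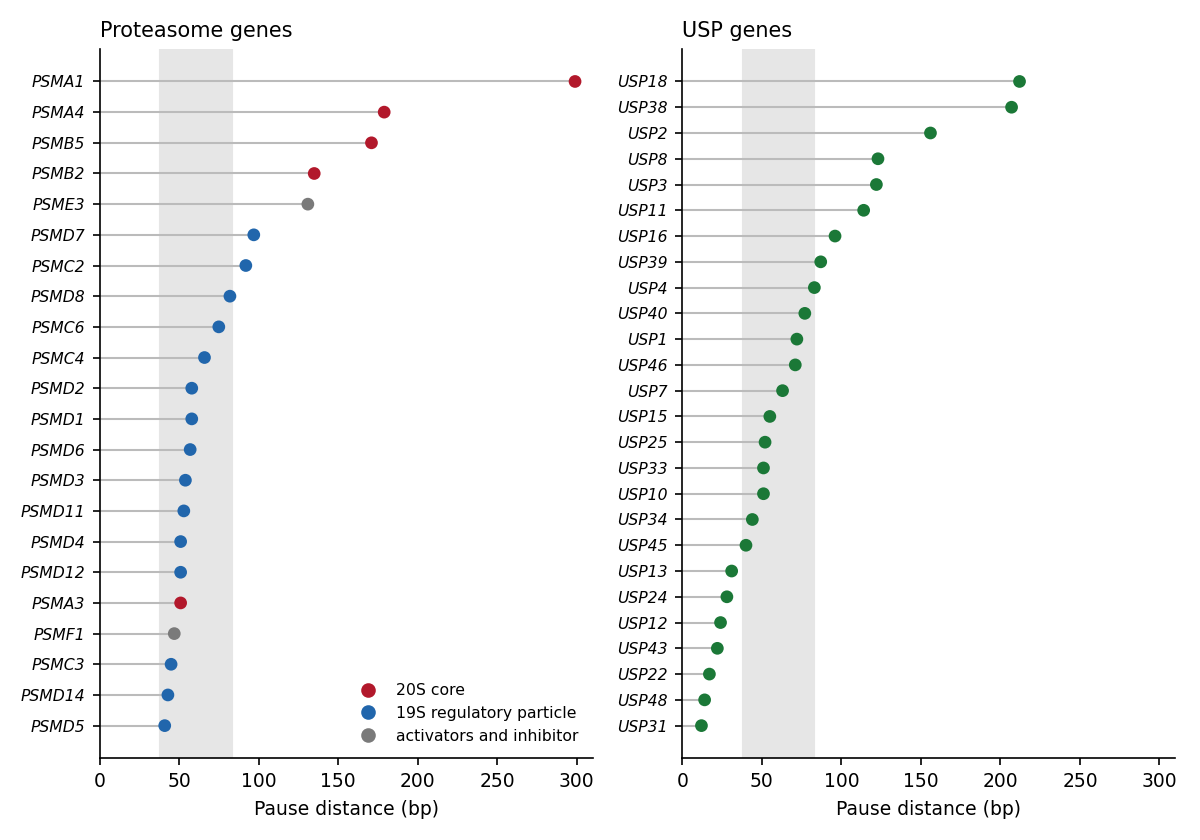
Pause distance in bp of each listed member, proteasome genes left and USP genes right, in order of distance; the grey band spans the quartiles of the other entries (38 to 83 bp). The core genes PSMA1, PSMA4, PSMB5 and PSMB2 head the proteasome genes, and the USP genes run from 12 to 212 bp.

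Of the alternative caps and the inhibitor, 2 genes were listed. PSME3, which encodes the nuclear activator PA28γ, had its site 131 bp from the listed start (chromosome 17, 42833418 to 42843760, plus strand). PSMF1, which encodes the inhibitor PI31, stood at 47 bp (chromosome 20, 1118637 to 1172246, plus strand). PSME1 and PSME2, the interferon-induced activator subunits, and PSME4, which lies head to head with ACYP2 at a gap of 119 bp, were not named entries.

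The USP genes covered a wider range than those of the 19S particle. Their median was 59 bp (quartiles 33.25 and 93.75, lowest 12, highest 212 bp; 26 genes), 7 bp above that of the other entries. That gap depended on the naming. The USP median was 53.5 bp with names by overlap of both extents, and 55 bp with USP symbols ending in X or Y included. The other entries stayed at 52 bp under both. Of the 26, 3 had a distance under 20 bp (11.5%, against 7.08% of all entries), 10 lay at 20 to 60 bp (38.5%, against 53.4%) and 6 lay over 100 bp (23.1%, against 18.7%). From 200 bp on there were 2 genes (7.69%, against 5.32%). The widest gap to the background, at 20 to 60 bp, amounts to about 4 genes.

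Nearest to the listed start lay USP31 at 12 bp, USP48 at 14 bp and USP22 at 17 bp. USP22 is the deubiquitinase of the SAGA coactivator complex and acts on histones. USP43 followed at 22 bp, USP12 at 24 bp, USP24 at 28 bp, USP13 at 31 bp and USP45 at 40 bp. USP34, an enzyme of very large size linked to Wnt signalling, stood at 44 bp.

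In the middle of the range lay USP10 and USP33 at 51 bp each, USP25 at 52 bp and USP15 at 55 bp. USP7, which acts on the ubiquitin ligase MDM2, stood at 63 bp. USP46 followed at 71 bp, USP1, which acts on FANCD2 and PCNA in DNA repair, at 72 bp, and USP40 at 77 bp. Together these 8 genes covered 26 bp around the USP median.

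Farther out were USP4 at 83 bp, USP39, a splicing factor that lacks protease activity, at 87 bp, and USP16, which acts on histone H2A, at 96 bp. Beyond 100 bp lay USP11 (114 bp), USP3, a further histone deubiquitinase (122 bp), USP8 of endosomal sorting (123 bp) and USP2 (156 bp). The most distant sites were those of USP38 at 207 bp (chromosome 4, 143184917 to 143223874, plus strand, site at 143185124) and USP18 at 212 bp (chromosome 22, 18149965 to 18177397, plus strand, site at 18150177). USP18 removes the ubiquitin-like ISG15 and is known as an interferon-induced gene.

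Paralogous USP genes, which share ancestry and enzyme architecture, did not have equal distances. USP4, USP11 and USP15 stood at 83, 114 and 55 bp. USP12 and USP46, which share the cofactor WDR48, stood at 24 and 71 bp, and USP16 and USP45 at 96 and 40 bp. In 4 further pairs, a single partner was named: USP25 (52 bp) but not USP28, USP33 (51 bp) but not USP20, USP13 (31 bp) but not USP5, and USP7 (63 bp) but not USP47. USP9X, whose symbol has a letter after the digits and which is therefore no member, was listed at 5 bp. Its listed end lay at -585 bp from the outermost RefSeq start, that is upstream of it, which puts its site at -580 bp. USP9Y and USP27X were not named entries.

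The groups also differed in gene length. Listed USP genes had a median length of 81517.5 bp (14511 to 283185), against 35471 bp for the other entries, whereas 19S genes had a median of 17153 bp (7665 to 115917) and core genes one of 15463 bp (9030 to 41974). The order of core and 19S lengths turned when names were given by overlap of both extents, with core genes at 19541 bp, or among protein-coding genes only, with core genes at 20287.5 bp. Among USP genes the shorter ones had the more distant sites from the listed ends: the 13 below the median length had a median distance of 83 bp (quartiles 63 and 114), and the 13 above it one of 40 bp (quartiles 24 and 55). From the outermost RefSeq starts these medians were 123 and 77 bp. From the nearest RefSeq transcript starts, where one lay within 300 bp, they were 82.5 bp (10 genes) and 55 bp (7 genes). The same length limit left the other entries, from their listed ends, at 52 bp (4844 genes) and 51 bp (1589 genes). This division was chosen after the values had been seen, and the ranges of the shorter and longer USP genes overlapped (17 to 212 and 12 to 123 bp). The longest USP gene, USP34 at 283185 bp, had a distance of 44 bp, and the shortest, USP11 at 14511 bp, one of 114 bp.

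**Figure D3:**
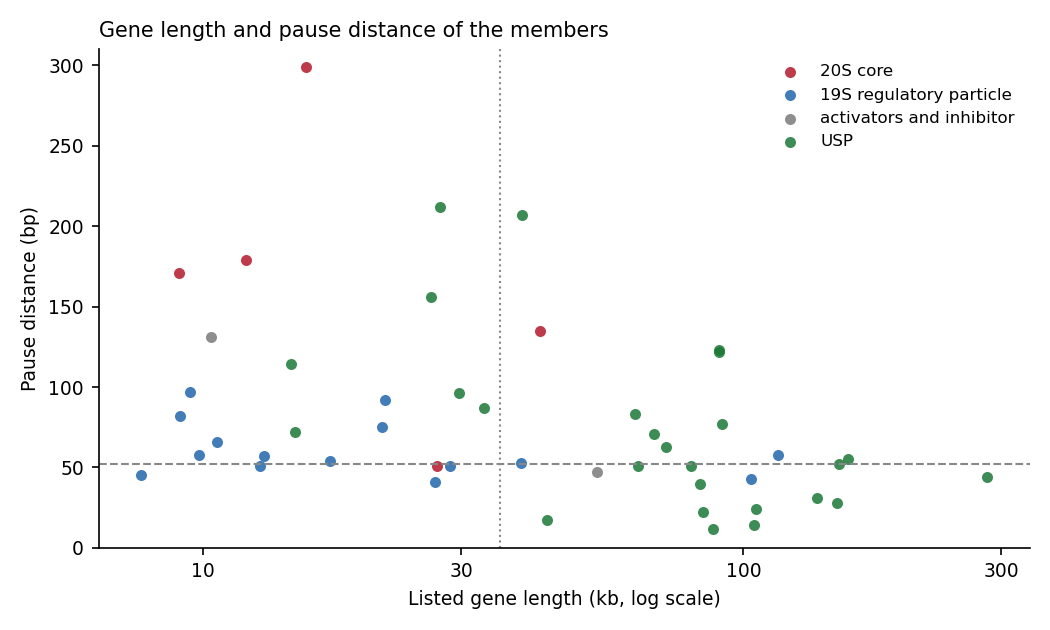
Listed gene length (kb, log scale) against pause distance (bp) for the 48 members by class; dashed and dotted lines mark the medians of the other entries (52 bp and 35471 bp). Proteasome genes lie mostly left of the dotted line and USP genes mostly right of it, with the most distant USP sites in genes shorter than 81517.5 bp.

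Whether a member was listed at all also differed between the complexes. Of RefSeq protein-coding genes, 29.1% were named entries (5822 of 20037). Entries that received no symbol count as absent in all these shares, which can therefore be too low. The share was 75% for the 19S genes (15 of 20), 54.2% for USP genes (26 of 48) and 26.3% for core genes (5 of 19). The core thus stood near the background and the other groups above it.

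Gene length and close neighbours went along with absence from the list. All entries were at least 3005 bp long, and 4 core genes (PSMB4, PSMB6, PSMB10 and PSMB11) and PSME1 were shorter than that. Genes with another protein-coding gene overlapping or within 1000 bp were listed in 16.8% of cases at that length, against 42.0% without such a neighbour. All 5 unlisted 19S genes had such a neighbour, PSMC1, PSMC5, PSMD9, PSMD10 and PSMD13, the last with SIRT3 head to head at a gap of 44 bp. All 12 of the 19S genes without a neighbour were listed, as were 20 of 27 USP genes (74.1%) and 4 of 8 core genes (50%). An entry received no symbol where a second RefSeq gene also met the naming rule, which can lower the shares of genes with a neighbour. The part of the naming, of neighbours and of length in these shares was not tested.

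**Figure D4:**
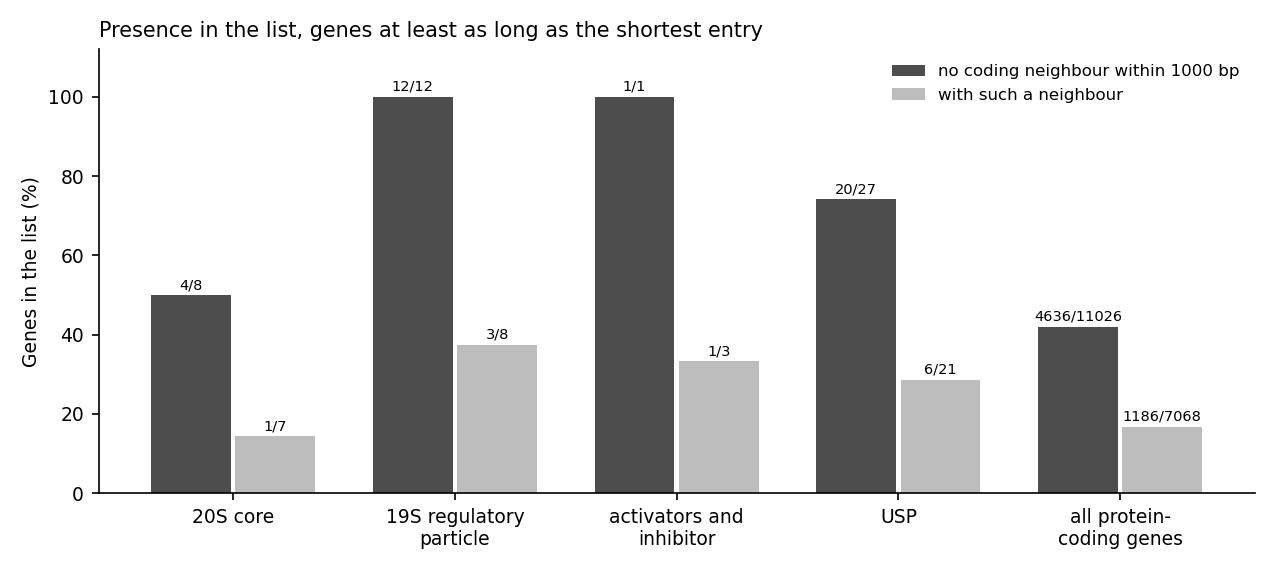
Share of RefSeq protein-coding genes of at least 3005 bp that were in the list (%), without (dark) and with (light) a protein-coding neighbour within 1000 bp; the numbers on the bars are listed genes over all genes of that kind. All 12 genes of the 19S regulatory particle without a neighbour were listed, against 4 of 8 core genes.

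The core genes absent from the list despite length and distance from neighbours were PSMA5, PSMA8, PSMB1 and PSMB3. PSMA8 encodes the α subunit of the testis proteasome. The 6 without a named entry but with a neighbour were PSMA2, PSMA6, PSMA7, PSMB7, PSMB8 and PSMB9, the last lying head to head with the antigen transporter gene TAP1 at 487 bp. PSMA6 is the gene that ends on the same base as the entry without a symbol described above (ENSG00000100902.11, chromosome 14, 35292382 to 35317493, distance 89 bp), and with it the core share is 31.6%.

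Among USP genes, 22 were not named entries, and 15 of those had a neighbour. They included USP14, the deubiquitinase that binds the proteasome itself, which overlaps THOC1, and USP5, which recycles free ubiquitin chains. USP50 overlapped the listed USP8. The 7 without a neighbour were USP26, USP28, USP29, USP36, USP47, USP51 and USP54. USP36 overlapped an entry without a symbol (ENSG00000055483.20, chromosome 17, 78795652 to 78840814) at 44 bp, which the second naming rule, by overlap of both extents, gave to USP36.

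The listed 5′ end decides each distance, and it often lay downstream of the outermost RefSeq start. It did so by more than 10 bp in 5 of 5 core genes, 10 of 15 genes of the 19S particle and 15 of 26 USP genes, against 53.1% of the other named entries. For PSMA1 the outermost start lay 123324 bp upstream. Measured from the nearest RefSeq transcript start in place of the listed end, core distances were 105 bp for PSMA3, 147 bp for PSMB2, 179 bp for PSMA4, 186 bp for PSMB5 and 347 bp for PSMA1. On that scale 5 of 5 core genes exceeded 100 bp, against 27.1% of the other entries with such a start within 300 bp of the listed end. The 19S share was near that of the other entries, at 28.6% of the 14 genes of the 19S particle with a matched start. These were PSMD1 (102 bp), PSMD7 (118 bp), PSMC2 (125 bp) and PSMD8 (299 bp), so 3 of the 19S values lay inside the core range of 105 to 347 bp.

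**Figure D5:**
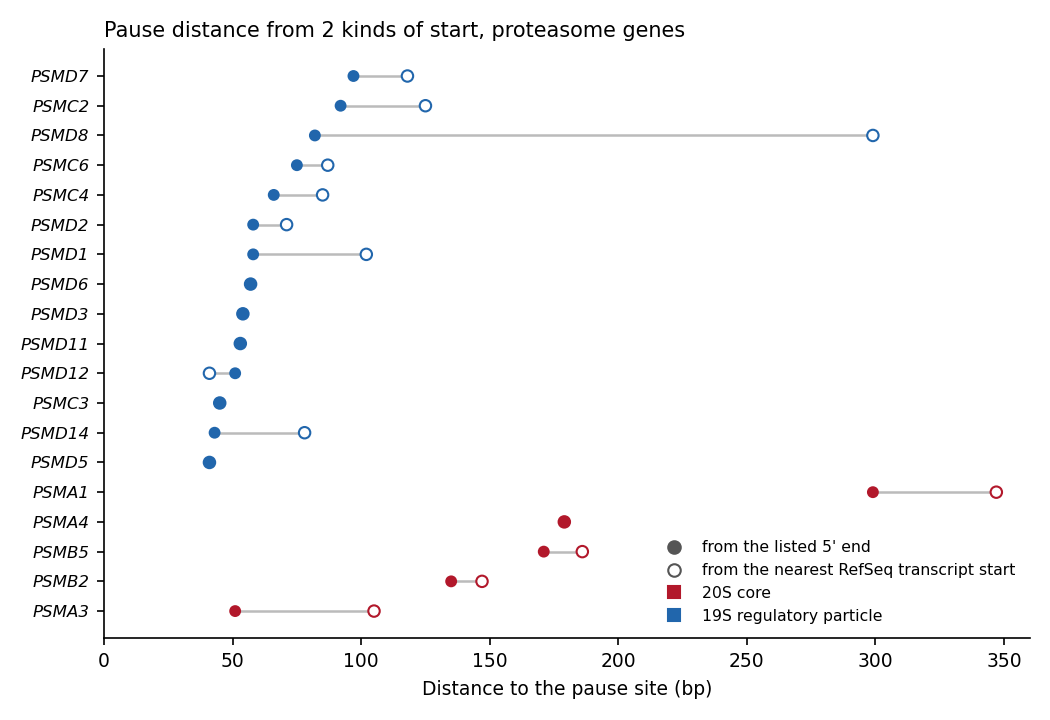
Distance in bp to the pause site from the listed 5′ end (filled) and from the nearest RefSeq transcript start (open), for core (red) and 19S (blue) genes. All 5 core genes lie over 100 bp from the RefSeq start, and PSMD8 shows the largest change among the 19S genes, from 82 to 299 bp.

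The distances of several USP genes depended on the start. From the outermost RefSeq start the genes under 20 bp stood farther out, USP31 at 70 bp, USP48 at 133 bp and USP22 at 458 bp (50 bp from its nearest start). USP43 stood at 308 bp, USP34 at 484 bp and USP11 at 923 bp. No gene of the 3 under 20 bp thus remained there. The listed end of USP13 lay at -303 bp from the RefSeq start, that is upstream of it, which puts its site at -272 bp. USP18 had its listed end at -205 bp, so that its 212 bp correspond to 7 bp from the RefSeq start. USP38, USP3 and USP4 had both ends on the same base, and their distances of 207, 122 and 83 bp do not depend on that choice.

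Promoter sequence was matched for 42 of the 48 members, taking for each the RefSeq start nearest to the listed end (within 50 bp for 36 of them, and farthest for USP2), and 5 short motifs were searched in the 250 bases before it on both strands. CCAAT, the core of the site bound by NF-Y, was found in 7 of 14 promoters of the 19S genes, 1 of 5 core promoters and 3 of 21 USP promoters, against 35.1% of the other entries and 32.0% of all 35116 promoter windows. The 19S promoters whose match began less than 120 bases before the start are shown, with the match of the single core gene, PSMA3, for comparison. Capitals mark 1 match in each run (ATTGG is CCAAT on the other strand).
PSMC2 (chr7:103347592-103347636, plus strand): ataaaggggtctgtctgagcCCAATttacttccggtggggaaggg
PSMD14 (chr2:161308357-161308401, plus strand): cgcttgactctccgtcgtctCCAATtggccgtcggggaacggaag
PSMC3 (chr11:47426529-47426573, minus strand): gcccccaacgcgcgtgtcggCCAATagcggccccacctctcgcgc
PSMD8 (chr19:38374463-38374507, plus strand): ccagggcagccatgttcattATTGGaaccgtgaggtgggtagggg
PSMA3 (chr14:58244805-58244842, plus strand): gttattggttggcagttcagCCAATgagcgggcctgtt

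The 19S matches began 31, 48, 114 and 88 bases before the RefSeq start and that of PSMA3 18 bases before it. PSMD14 and PSMA3 each held a second match on the other strand, 45 and 35 bases before the start. PSMA3, the core gene with a CCAAT match, is also the core gene with the shortest distance (51 bp), while the 19S genes shown ranged from 43 bp for PSMD14 to 92 bp for PSMC2. GGGCGG, a GC box letter pattern, was found in 18 of 21 USP promoters, 9 of 14 of the 19S genes and 2 of 5 core promoters, against 76.0% of the other entries and 42.6% of all windows. The USP promoters were also richer in G and C, with a median of 72.4% over the 250 bases, against 63.6% for 19S, 57.6% for core and 67.2% for the other entries. Core promoters thus had the lowest and USP promoters the highest G and C content of the classes. CCGGAAG, an ETS-type letter pattern, occurred in 5 of 14 promoters of the 19S genes, 0 of 5 core promoters and 5 of 21 USP promoters (16.2% of the other entries and 8.52% of all windows). TATAAA occurred in 2, 0 and 2 promoters of these classes (3.90% and 10.7%).

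TGACNNNGC, the letters of the antioxidant response element through which NFE2L1 is known to act on proteasome genes, occurred in 3 of 14 promoters of the 19S genes and 0 of 5 core promoters. It also occurred in 3 of 21 USP promoters, 12.4% of the other entries and 10.9% of all windows. The 19S matches are printed because this element is the known route of joint proteasome control, with the match in capitals.
PSMD12 (chr17:67366714-67366762, minus strand): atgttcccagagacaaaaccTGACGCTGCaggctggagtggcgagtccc
PSMD3 (chr17:39980750-39980798, plus strand): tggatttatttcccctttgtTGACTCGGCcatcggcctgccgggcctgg
PSMD5 (chr9:120843028-120843076, minus strand): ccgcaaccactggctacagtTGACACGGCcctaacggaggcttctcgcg

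These matches began 165, 37 and 134 bases before the start, and their genes had pause distances of 51, 54 and 41 bp. No motif search covered the bases after the start.

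Another 103 genes of the ubiquitin system and of ubiquitin-like pathways were examined by name. Of these, 61 were listed, against 29.1% of all protein-coding genes, with a median distance of 46 bp (3 to 231). Of the 61, 8 lay over 100 bp, against 18.7% of all entries. These background shares apply to each list that follows. In the control of proteasome genes 7 of 10 were listed, among them NFE2L1 itself at 82 bp and its relative NFE2L2 at 32 bp. NGLY1 and DDI2, the enzymes that process NFE2L1 into its active form, stood at 80 and 109 bp. The range in this group began with MAFF at 28 bp, with NFYB in the middle at 65 bp. The listed ends of NFE2L1, NGLY1 and NFYB lay 425, 6596 and 119 bp downstream of the outermost RefSeq start. Those of MAFF and DDI2 lay on it.

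From the listed ends, proteasome assembly factors had short distances, POMP at 18 bp and PSMG1 at 23 bp. They were the only 2 listed of 8 genes of assembly and further subunits. Their listed ends lay 27 bp (POMP) and 100 bp (PSMG1) downstream of the outermost RefSeq start. From that start both sites lay farther out by the same amounts. POMP guides the maturation of the core, whose own listed subunits lay at 51 to 299 bp from their listed ends. E1 enzymes of ubiquitin and ubiquitin-like proteins (6 of 8 listed) ran from UBA2 at 19 bp through UBA6 at 43 bp to SAE1 at 154 bp. E2 enzymes (20 of 29) began with UBE2B at 13 bp, with UBE2G2 in the middle at 46 bp. The listed end of UBE2B lay at -100 bp from the outermost RefSeq start, that is upstream of it, and that of UBA2 lay 38 bp downstream.

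Deubiquitinases outside the USP family had a median equal to that of all members, 58 bp, with 19 of 34 listed. They ran from UCHL3 at 3 bp through OTUD3 at 58 bp to COPS5, the deneddylase of the COP9 signalosome, at 231 bp, and 4 of the 19 lay over 100 bp. The listed end of UCHL3 lay 292 bp downstream of the outermost RefSeq start, and from that start its site lay farther out by the same amount. That of COPS5 lay on the RefSeq start. Genes of ubiquitin shuttles and of the ATPase p97 and its cofactors (5 of 10 listed) kept to 27 to 59 bp. UBQLN2 was lowest, RAD23B stood in the middle at 45 bp and NSFL1C was highest.

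Of the colon epithelium markers CDX2, KRT8, KRT18, KRT19, KRT20, EPCAM, CDH1, VIL1, LGALS4 and CDH17, 6 of 10 were listed, all but KRT8, VIL1, LGALS4 and CDH17. Of the fibroblast markers COL1A1, COL1A2, COL3A1, DCN, LUM and PDGFRB, 0 of 6 were listed, and the share of all protein-coding genes was 29.1%. Presence in the list is no measure of expression.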

How the data were processed

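The authors deposited a list of genes and a list of pause sites, in hg38 coordinates (bp) per the names of the lists, with 6481 rows each and no score or value per library. The authors placed the sites by a method not given in the sources used here, and the depth behind them is unknown. The submitters' processing notes name cutadapt 1.14, Bowtie2 2.2.6 and deepTools 3.1.1.

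Rows were joined by Ensembl identifier and read as 1-based positions. An entry took the symbol of the only RefSeq gene (GRCh38.p14) whose 3′ end lay within 50 bp of its own and which covered at least 50% of it, which named 5822 entries. The same rule named 6 after a shift of 1000000 bp. Tested on simulated data, it named 1971 of 2000 entries rightly and 0 wrongly. A larger share of the simulated entries than of the 6481 listed ones received a name, so these counts give no error rate for the list. Sequences are RefSeq promoter windows (250 bases before to 50 after a start). All listed members are named, and of other ubiquitin genes those lowest, in the middle and highest of each list, with further ones named for their role and some not reported here. Alternatives changed the naming rule, the start and the background. Members and gene lists were chosen with earlier results of these data known, and no test over genes was run. Tables were made with pandas 2.3.3 under Python 3.11.15 (NumPy 2.4.6, SciPy 1.17.1). Plots were drawn with matplotlib 3.10.9.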

Additional observations from a re-analysis of the deposited data

How the results depend on the processing

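The median pause distance of the 20S core lay above those of the 19S regulatory particle and USP genes under all alternatives that gave a value for it, at 147 to 179 bp. With 5 core genes, several alternatives leave the same genes in place, and this order is no measure of stability. The order of the core and 19S gene lengths turned with the naming rule. Ends within 10 bp of RefSeq left 0 core genes. Distances from the outermost RefSeq start, for ends within 300 bp of each other, gave 19S genes a median of 80 bp with 28.6% over 100 bp, core genes 100% over 100 bp (3 genes) and the other entries 69 bp and 29.4%. From the nearest transcript start, an alternative chosen after seeing the data, the shares over 100 bp were 100% for core, 28.6% for 19S and 27.1% for the other entries, whose median was 67 bp. For ends within 50 bp of RefSeq, 100% of the 2 core genes left and 16.6% of the other entries lay over 100 bp, and for ends within 10 bp 16.3% of the other entries did. The mean distance of the other entries was 71.0 bp. Without a protein-coding neighbour and at 3005 bp or more, 50% of core, 100% of 19S, 74.1% of USP and 42% of all coding genes were listed. The share of all coding genes was 32.2% for that length alone and 28% with names by overlap of both extents.

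No paired analysis was possible because the lists hold no value for any library.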
